A study of Mus musculus with 6 samples.

Results

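The mitochondrial ribosomal protein genes are described here in LD-1, a mouse cell line from a cholangiocarcinoma, a tumour of the bile duct epithelium. They were taken as the 83 of 28212 genes in the deposited table whose symbol begins with Mrpl or Mrps followed by a number. By name 52 belong to the large subunit and 31 to the small one, and 5 of the 83 are pseudogenes (Mrpl23-ps1, Mrpl27-ps and Mrpl48-ps, Mrps36-ps1 and Mrps36-ps2), which leaves 49 Mrpl and 29 Mrps genes. Poly(A) RNA was sequenced from 3 libraries of LD-1 cells given hepatocyte growth factor (HGF), which acts through the receptor Met, and from 3 control libraries of the same line. No genotype, dose, exposure time or animal age is given for either group, and all 6 libraries come from a single line, so nothing here speaks for other tumours. The labels call the material both a cell line and tumour tissue, and whether replicates were independent cultures is not stated, so each p-value reflects library-to-library spread that could be technical.

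The mitochondrial ribosome (mitoribosome) makes the few proteins that mitochondrial DNA encodes, all of them subunits of the respiratory chain and the ATP synthase. Its RNA parts come from mitochondrial DNA, but every protein of its large and small subunits is encoded in the nucleus, made on cytosolic ribosomes and imported. Some of these proteins descend from bacterial ribosomal proteins, and others exist only in mitochondrial ribosomes. Their numbers follow the order of naming, so a few names mislead: Mrps18a and Mrps30 sit in the large subunit, and Mrps36 is now known as a component of the 2-oxoglutarate dehydrogenase complex.

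Libraries held 57073866 (Control 3) to 66302502 counts (Control 1). Of 9 cholangiocyte markers that could be tested, 5 were higher with HGF and none lower, and their summed level was 2852 to 2863 CPM (counts relative to the library total, scaled by TMM) in HGF libraries, against 1461 to 1496 in controls. Hepatocyte markers summed to 21.7 to 37.2 CPM with HGF, against 2.20 to 6.14 in controls (7 of 9 higher, none lower), and Fgb was at 0 in every control. Fibroblast markers summed to 676 to 703 CPM with HGF, against 253 to 275 in controls (6 of 9 higher, none lower). Macrophage markers summed to 102 to 107 CPM with HGF, against 58.3 and 62.1 in Controls 1 and 2 and 122 in Control 3 (2 of 9 higher, 1 lower). The sum does not speak for the list: 6 of these 9 genes had a negative and 3 a positive log2 fold change, HGF over control, with a median of -0.66. Adipocyte markers summed to 6.28 to 8.25 CPM, against 2.73 to 5.32 (1 of 3 higher). Skeletal muscle markers (5 tested, 2 lower) summed to 3.43 to 6.13 CPM with HGF, against 3.75 to 3.95 in Controls 1 and 2 and 228 in Control 3, which stands apart in muscle and macrophage markers. For these counts the share over all genes, by the test described below, was 19.1% higher and 19.3% lower (38.5% in all). The part of these cell type genes in the results below was not tested, and in bulk RNA fewer cells of a type and less RNA per cell cannot be told apart.

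With HGF, individual mitoribosome genes changed in both directions and by little, and whether the summed level of each subunit differed between the groups depended on the scaling. Among the genes that passed the test described below, Mrps28, Mrpl54 and Mrps18b were the largest rises, Mrpl49 and Mrps25 the largest falls. The 49 Mrpl genes together had 2376, 2438 and 2414 CPM in HGF libraries, against 2344, 2310.3 and 2448 CPM in controls. The 29 Mrps genes had 1322, 1357 and 1337 CPM in HGF libraries, against 1314, 1309 and 1383 CPM in controls. Both sums overlapped between the groups, and the ratios of the means, HGF over control, were 1.018 and 1.003. Without the TMM factor, as shares of all counts, the Mrpl genes made up 0.229% to 0.236% of HGF libraries, against 0.241% to 0.253% of controls, and the Mrps genes 0.127% to 0.131%, against 0.135% to 0.143%. The deposited FPKM, which also lack that factor, summed to 1028 to 1033 with HGF, against 1062 to 1119 in controls, over the Mrpl genes and to 481 to 500.3, against 519.7 to 555, over the Mrps genes. In shares and in FPKM both sums were thus lower in every HGF library than in any control.

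All 83 genes had enough counts to be tested. At an adjusted p under 0.05 (edgeR quasi-likelihood test, Benjamini-Hochberg over 17322 genes), 10 of the 52 Mrpl genes were higher with HGF and 6 lower, which is 30.8%, beside 38.5% of all genes tested (19.1% higher and 19.3% lower). Of the 31 Mrps genes 8 were higher and 8 lower, or 51.6%. Among the 7416 genes whose mean count lay in the range of the members (777 to 7991, pseudogenes aside) 50.7% passed (21.9% higher and 28.8% lower). With pseudogenes left out of the members too, 32.7% of 49 Mrpl and 55.2% of 29 Mrps genes passed. The median log2 fold change, HGF over control, was 0.012 over the Mrpl and 0.00087 over the Mrps genes (-0.0019 and -0.071 without pseudogenes), against -0.025 over all genes. None of the 83 genes passed the test with a 2-fold change, beside 5.77% of all genes and 1.63% of those in the same count range. The 3 HGF values lay wholly above or below the 3 control values in 20 Mrpl and 22 Mrps genes, or 42 of 83, beside 51.4% of all genes.

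The balance of rises and falls depended on how the libraries were scaled. TMM, which sets libraries equal over the bulk of their genes rather than by total, gave factors of 0.963 to 0.968 in HGF libraries and 1.03 to 1.04 in controls. With library totals alone the median of all genes moved by -0.10, and 32.3% of all calls were higher with HGF, in place of 49.8%. On that scale 5 Mrpl genes were higher and 15 lower, and 5 Mrps genes higher and 14 lower, beside 13.6% of all genes higher and 28.5% lower. Relative to the median of all genes the Mrpl median was then 0.04 higher and the Mrps median 0.03 higher, pseudogenes included. Without pseudogenes, in the reported setting, the Mrpl median of -0.0019 lay above the -0.025 of all genes. The Mrps median of -0.071 lay below it. Over the 19 settings, the reported one included, the difference from the median of all genes ran from -0.06 to 0.08 for Mrpl and from -0.07 to 0.08 for Mrps genes. It was below 0 in 2 and 8 of them. These medians include the pseudogenes that a setting kept, and some settings drop them as low in counts, so part of the range reflects which rows were kept. Limma on log2(FPKM + 1) of the deposited FPKM gave 5 Mrpl genes higher and 16 lower, and 4 Mrps genes higher and 15 lower (17.5% and 36.1% of all genes, 53.6% in all). None of the 32 members that passed the test changed sign under any of 18 alternative settings, and 13 passed under all of them: Mrps28, Mrps18b, Mrpl54, Mrpl23, Mrpl38, Mrps30 and Mrps5 as rises, and Mrpl49, Mrps25, Mrpl33, Mrps26, Mrps23 and Mrpl4 as falls.

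**Figure D1:**
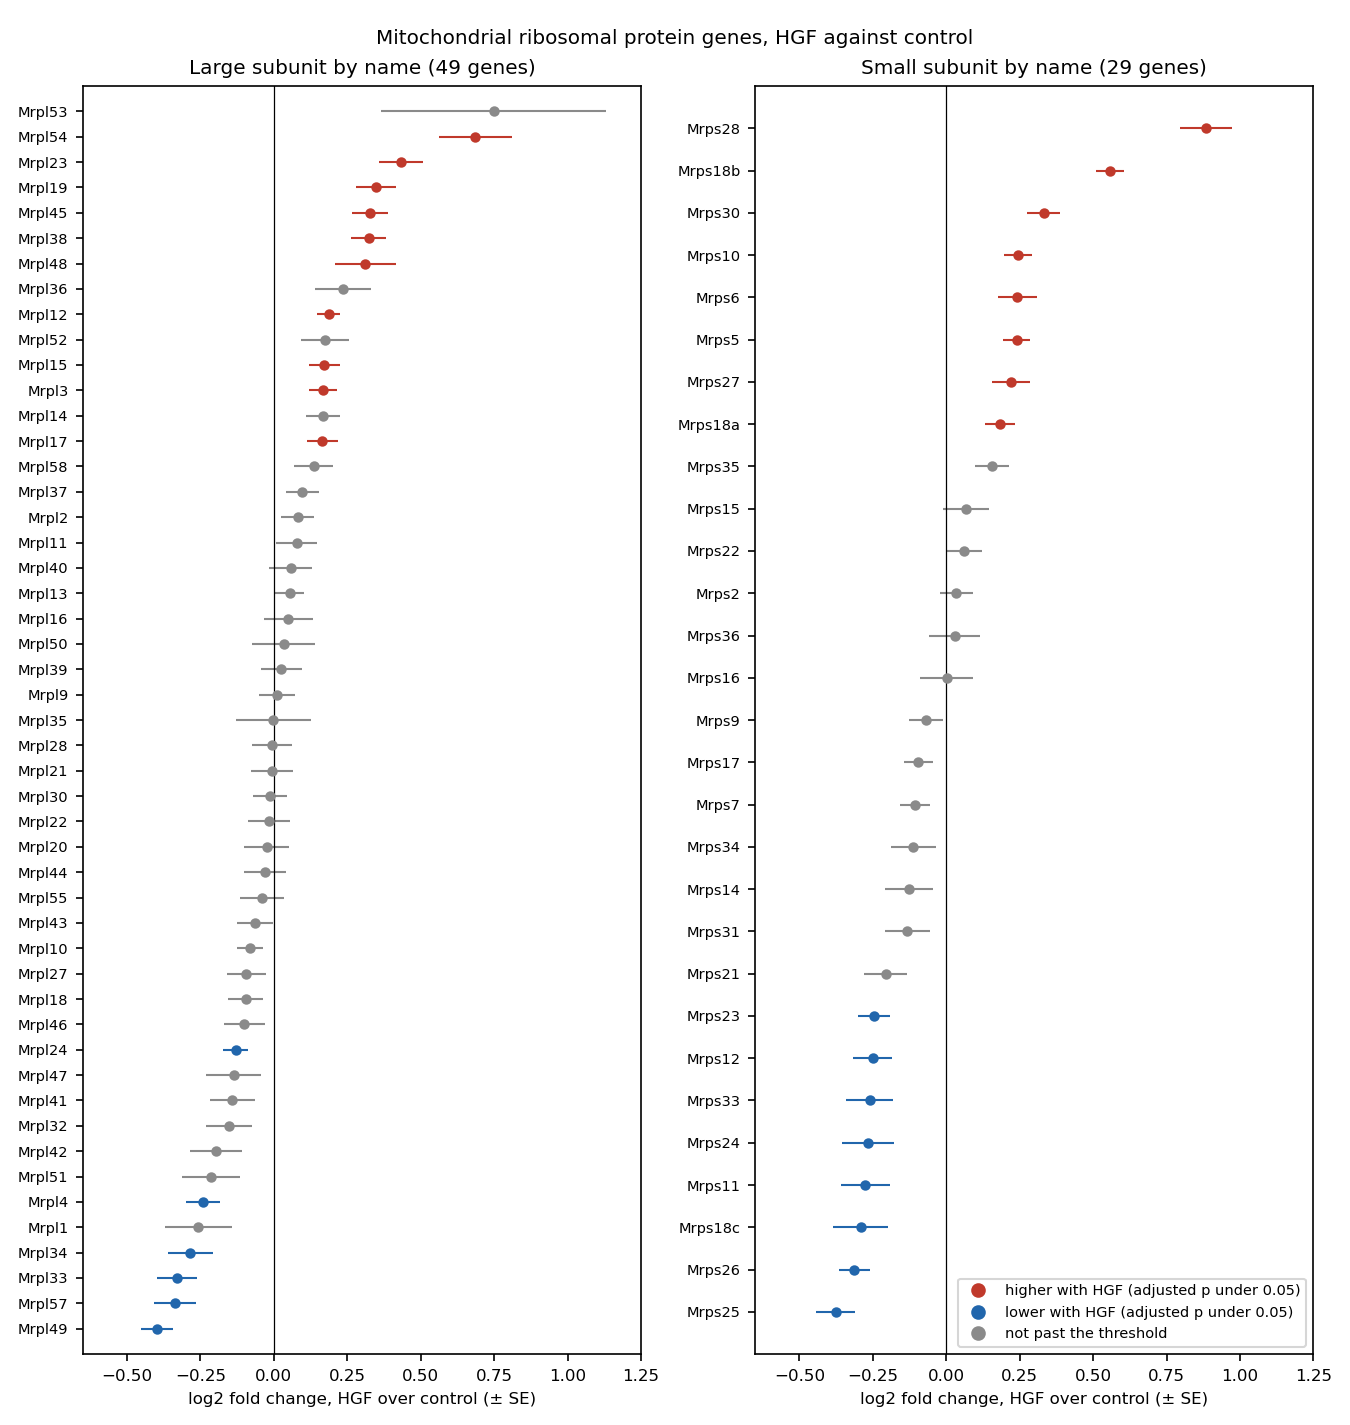
Log2 fold change of each mitoribosome gene, HGF over control (x axis, points with ± SE from the edgeR fit to 3 libraries a group), large subunit names on the left and small subunit names on the right, pseudogenes left out. Points in colour passed adjusted p 0.05; most points lie within 0.25 of 0, and Mrps28 at 0.88 lies farthest to the right.

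Many mitoribosome genes start close to another protein-coding gene on the opposite strand, so that one short stretch of DNA holds the start of both. Of the 78 members that are not pseudogenes, 33 had such a head-to-head neighbour with starts at most 1000 bases apart (32 pairs, since Mrps11 and Mrpl46 are each other's), and in 21 pairs the starts lay within 200 bases. The share of other genes with such a neighbour was not counted, so this cannot be called particular to mitoribosome genes. In some pairs the genes diverge, and in others they overlap at their starts. Overlapping pairs can share exon bases, 708 for Mrpl48 with Rab6a and 173 for Mrps11 with Mrpl46. Their counts could mix if counting ignored strand. The promoters of 4 of these members are shown because their pairs behaved differently: the member rose and its neighbour did not pass the test (Mrps18b), the member fell and its neighbour rose (Mrpl49), or both fell (Mrpl57 and Mrps18c). Each runs 5′ to 3′ on the strand of the member, from 250 bases before the RefSeq start to 50 after it, on GRCm38.p6. Distances between starts were taken from GENCODE M21 instead, and the starts can differ. The Mrps18b window lies wholly before the start of that gene in the deposited coordinates. Capitals mark matches, on either strand, to the motifs of NRF1 (GCGCA, any base N, then GCGC), ETS factors such as GABPA (CCGGAAG) and YY1 (AAGATGGC), which have long been known from promoters of mitochondrial genes.
Mrps18b, chr17:35916391-35916690, minus strand: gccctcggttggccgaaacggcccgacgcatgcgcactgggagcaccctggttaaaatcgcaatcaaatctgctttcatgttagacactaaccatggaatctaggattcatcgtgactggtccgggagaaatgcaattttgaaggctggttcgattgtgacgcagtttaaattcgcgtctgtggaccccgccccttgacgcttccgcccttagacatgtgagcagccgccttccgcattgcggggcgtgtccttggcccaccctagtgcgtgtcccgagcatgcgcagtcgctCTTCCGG
Mrpl49, chr19:6057706-6058005, minus strand: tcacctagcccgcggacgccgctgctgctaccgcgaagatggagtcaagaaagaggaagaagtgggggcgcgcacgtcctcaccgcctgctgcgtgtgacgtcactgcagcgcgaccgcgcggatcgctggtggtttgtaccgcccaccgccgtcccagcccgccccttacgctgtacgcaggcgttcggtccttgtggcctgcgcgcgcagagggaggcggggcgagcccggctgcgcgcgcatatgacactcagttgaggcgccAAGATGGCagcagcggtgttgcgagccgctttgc
Mrpl57, chr14:57825989-57826288, plus strand: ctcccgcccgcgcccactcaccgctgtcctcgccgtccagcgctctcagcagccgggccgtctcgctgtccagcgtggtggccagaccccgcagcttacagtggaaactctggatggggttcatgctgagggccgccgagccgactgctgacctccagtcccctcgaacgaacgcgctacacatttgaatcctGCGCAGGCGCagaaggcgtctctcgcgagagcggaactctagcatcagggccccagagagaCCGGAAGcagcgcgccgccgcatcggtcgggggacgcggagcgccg
Mrps18c, chr5:100798509-100798808, plus strand: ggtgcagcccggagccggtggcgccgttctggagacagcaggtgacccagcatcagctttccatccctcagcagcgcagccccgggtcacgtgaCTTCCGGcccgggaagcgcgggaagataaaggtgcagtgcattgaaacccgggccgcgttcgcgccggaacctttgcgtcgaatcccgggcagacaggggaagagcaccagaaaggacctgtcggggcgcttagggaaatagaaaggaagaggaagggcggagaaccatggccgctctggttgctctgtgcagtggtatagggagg

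Promoters of 69 members (75 sequences, since some genes have several) were in the RefSeq table of 32851 promoters of the same length. The NRF1 letters were in 17.3% of the member promoters, against 4.60% of all promoters. The ETS letters were in 34.7%, against 8.86%, and the YY1 letters in 16.0%, against 2.75%. At least 1 of these motifs was in 43 of the 75 member promoters (57.3%), against 14.7% of all. The letters of the ETS and YY1 motifs can overlap, as both hold AAG, and the other pairs of motifs were not checked for overlap. The E-box CACGTG, which MYC and MAX bind, was in 9.33%, against 7.15% of all promoters, the AP-1 letters TGANTCA in 3 of 75, against 7.81%, and the TATA letters TATAAA in 6.67%, against 13.6%. The motifs were spread over members of every outcome: the ETS letters were found in 6 of 13 members that rose, 8 of 13 that fell and 12 of 43 that did not pass the test. For NRF1 these counts were 3 of 13, 2 of 13 and 8 of 43, and for YY1 2 of 13, 4 of 13 and 6 of 43. A match is a run of letters and not a shown binding site. The comparison took all promoters, without matching them to the members in base content or expression, so these shares cannot be called particular to mitoribosome genes.

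Mrps18b had 73.7, 78.3 and 75.2 CPM with HGF, against 51.8, 51.8 and 50.7 CPM in controls. Its neighbour Ppp1r10, whose start lies 45 bases away and whose product targets protein phosphatase 1 in the nucleus, had 124, 117 and 122 CPM with HGF, against 119, 115 and 123 CPM in controls. The Mrps18b libraries separated fully while those of Ppp1r10 overlapped: log2 0.56 ± 0.05 for Mrps18b (adjusted p = 5.04e-05, edgeR quasi-likelihood test) and 0.02 ± 0.04 for Ppp1r10 (adjusted p = 0.730). Mrpl54 and Apba3, an adaptor protein gene whose start lies 26 bases away, formed a like pair. Apba3 had 50.1, 49.6 and 47.4 CPM with HGF, against 51.5, 49.4 and 50.5 CPM in controls (log2 -0.04 ± 0.05, adjusted p = 0.583), beside a rise of 0.69 ± 0.12 in Mrpl54.

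Mrpl49 had 49.6, 47.4 and 46.5 CPM with HGF, against 63.3, 60.4 and 65.4 CPM in controls. Fau, which encodes a fusion of a ubiquitin-like protein with a protein of the cytosolic ribosome and starts 59 bases away, had 335, 332 and 342 CPM with HGF, against 290, 287 and 325 CPM in controls. So the members of this pair moved in opposite directions, with Mrpl49 lower (log2 -0.40 ± 0.05, adjusted p = 5.92e-04) and Fau higher (log2 0.16 ± 0.05, adjusted p = 0.0343). In the other 2 pairs shown both genes fell. Mrpl57 had 24.7, 26.3 and 24.6 CPM with HGF, against 31.1, 30.2 and 34.2 CPM in controls. Its neighbour Ska3, a gene of the spindle and kinetochore, had 31.4, 28.4 and 27.7 CPM with HGF, against 34.7, 35.7 and 41.7 CPM in controls. Neither gene had overlapping groups, and the log2 fold changes were -0.34 ± 0.07 for Mrpl57 and -0.36 ± 0.09 for Ska3 (adjusted p = 0.00559 and 0.0108). The call for Mrpl57 was lost under a correction for GC content (adjusted p = 0.0799). For Mrps18c and Helq, a DNA helicase gene 29 bases away, they were -0.29 ± 0.09 and -0.28 ± 0.08 (adjusted p = 0.0377 and 0.0199), with Helq at 16.9, 17.1 and 16.8 CPM with HGF, against 22.5, 19.5 and 19.8 CPM in controls.

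Of the 11 pairs with a member that passed the test, 2 moved together, 1 moved in opposite directions, 7 had a neighbour that did not pass and 1 had a neighbour that could not be tested. Of all genes tested 38.5% passed, 19.1% higher and 19.3% lower, so a mix of such outcomes is no trait of these pairs. How often other pairs of genes show each outcome was not tested. The genes overlap at their starts, rather than diverge, in the pairs of Mrpl48, Mrps11 and Mrps30. In the 7 pairs whose neighbour did not pass, the member was higher in 5 (Mrpl54, Mrps18b, Mrpl48, Mrps5 and Mrps27) and lower in 2. The lower ones were Mrps12, whose neighbour Sars2 encodes the mitochondrial seryl-tRNA synthetase, and Mrps11, whose neighbour is the mitoribosome gene Mrpl46 (log2 -0.10 ± 0.07, adjusted p = 0.292). The reverse also occurred. In 9 pairs the neighbour passed and the member did not, 4 of these neighbours higher and 5 lower. Eme2, an endonuclease subunit gene 29 bases from Mrps34, had 51.9, 46.4 and 46.5 CPM with HGF, against 75.1, 71.6 and 73.9 CPM in controls (log2 -0.61 ± 0.06, adjusted p = 9.70e-05), beside -0.11 ± 0.08 for Mrps34 (adjusted p = 0.286). Of the exon bases of Mrps34 63.4% lie opposite those of Mapk8ip3 (log2 -0.01), and 37.0% are shared on the same strand with Nme3 (log2 0.49). Neither of these passed, and their reads could mix with those of Mrps34. The difference between the genes of a pair was not tested itself.

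**Figure D2:**
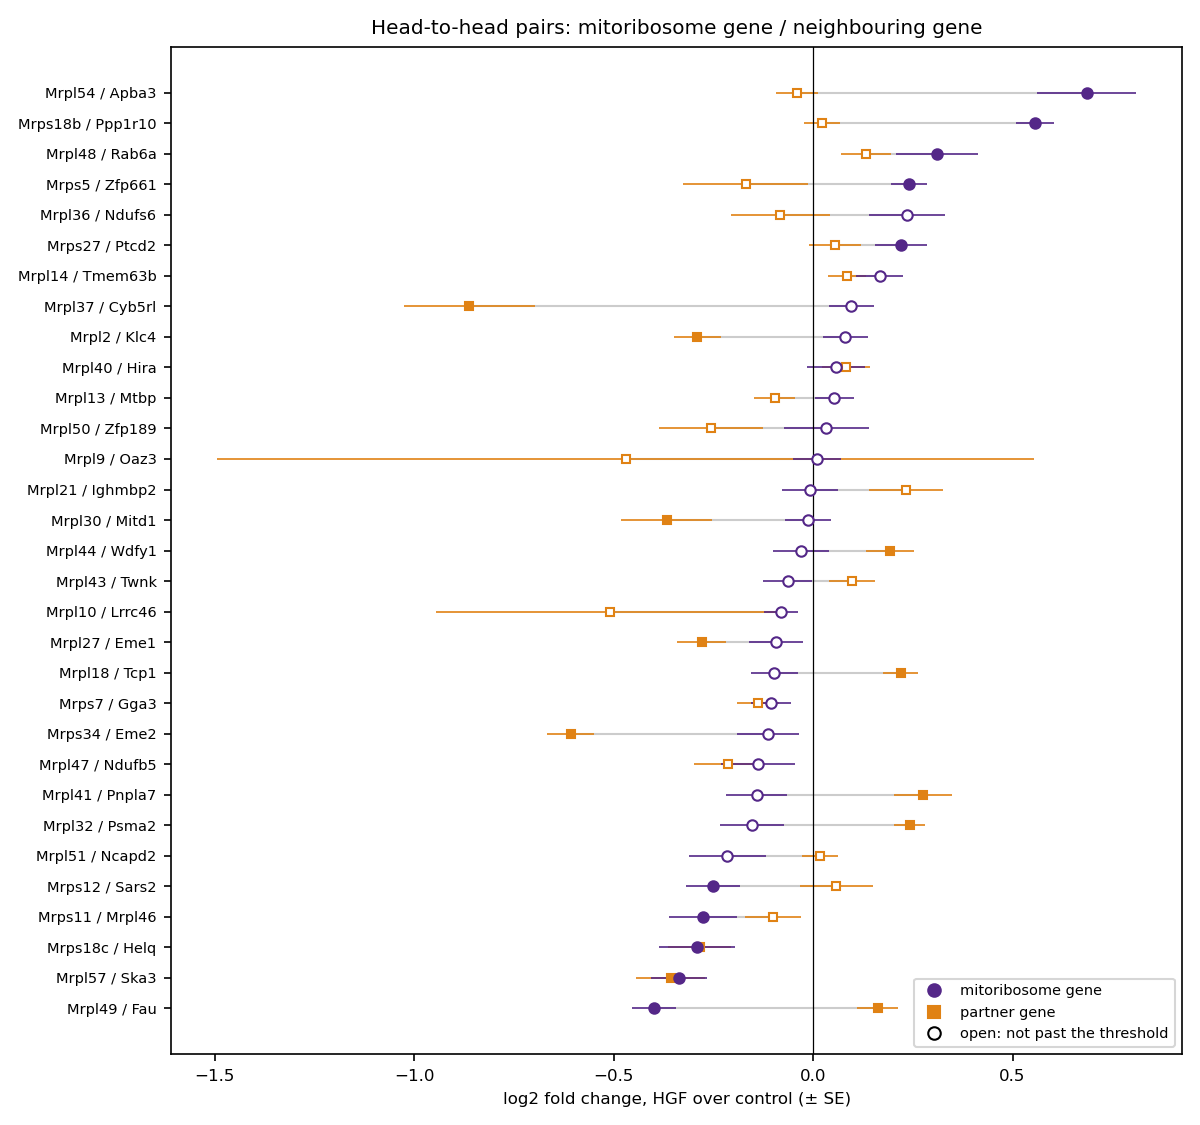
Log2 fold change, HGF over control (x axis, ± SE), of each mitoribosome gene (circles) and of its head-to-head neighbour (squares) in the 31 pairs with a tested neighbour; open symbols did not pass adjusted p 0.05. Circle and square lie together for Mrpl57 with Ska3 and Mrps18c with Helq and far apart for Mrpl54, Mrps18b and Mrpl49.

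The small subunit held the largest change. Mrps28 (ENSMUSG00000040269, chromosome 3, 8802146 to 8923918), a mitochondrial relative of bacterial protein S1, rose 1.85-fold. Below, FPKM are the deposited levels (fragments relative to exon length and library size), and log2 is the fold change of the scaled counts, HGF over control, ± SE. Mrps28 had 16.2, 17.9 and 18.6 FPKM in HGF libraries, against 10.3, 10.4 and 9.78 FPKM in controls. The groups lay far apart, log2 0.88 ± 0.09, adjusted p = 1.10e-04. Mrps18b (ENSMUSG00000024436, chromosome 17, 35910379 to 35916389), one of 3 mammalian relatives of bacterial protein S18, rose 1.47-fold. The level of Mrps18b was 30.7, 32.4 and 31.3 FPKM with HGF, against 23.04, 23.3 and 22.2 FPKM in controls. The HGF libraries lay above every control, as they did in CPM.

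The S18 relatives did not move as a group. Mrps18b and Mrps18c sit in the small subunit and Mrps18a in the large one. FPKM of Mrps18c were 12.6, 14.6 and 15.5 with HGF, against 17.3, 19.8 and 18.7 in controls. Every HGF library lay below the controls (log2 -0.29 ± 0.09, adjusted p = 0.0377), the direction opposite to Mrps18b. In HGF libraries Mrps18a stood at 16.8, 16.1 and 15.7 FPKM, against 15.8, 15.01 and 14.9 FPKM in controls. In FPKM the groups overlapped slightly, and in CPM they did not overlap (log2 0.18 ± 0.05, adjusted p = 0.0202). The call for Mrps18a was lost without HGF 2, Control 2 or Control 3 (adjusted p up to 0.0798), and that for Mrps18c without HGF 1, HGF 2, Control 2 or Control 3 (adjusted p up to 0.131). Of the exon bases of Mrps18c 23.2% are shared on the same strand with Gm43511, which had only 6 to 45 counts per library. Gm43511 was itself called lower (log2 -1.74).

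Of the small subunit proteins shared with bacteria, Mrps5, Mrps10 and Mrps6 rose. Mrps5 had 10.00, 9.86 and 9.65 FPKM in HGF libraries, against 8.86, 8.86 and 8.97 FPKM in controls. The groups did not overlap, and the change was small (log2 0.24 ± 0.05, adjusted p = 0.00320). The level of Mrps10 was 9.90, 9.11 and 9.37 FPKM with HGF, against 8.59, 8.75 and 8.26 FPKM in controls. It too was separated (log2 0.24 ± 0.05, adjusted p = 0.00363). FPKM of Mrps6 were 28.4, 30.8 and 30.1 with HGF, against 25.4, 26.6 and 28.6 in controls. Control 3 lay just above HGF 1 in FPKM, and no control did in CPM (log2 0.24 ± 0.07, adjusted p = 0.0191). Without HGF 2, Control 1 or Control 2, Mrps6 did not pass (adjusted p up to 0.0714).

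Mrps11, Mrps24 and Mrps12, also shared with bacteria, fell, the last being the protein of the decoding centre whose bacterial counterpart is the site of streptomycin resistance. In HGF libraries Mrps11 stood at 9.22, 9.31 and 8.43 FPKM, against 10.8, 11.5 and 12.6 FPKM in controls. Mrps24 had 22.6, 20.9 and 21.1 FPKM in HGF libraries, against 27.4, 24.8 and 30.7 FPKM in controls. The HGF libraries were lower than every control in both genes (log2 -0.28 ± 0.08 for Mrps11 and -0.27 ± 0.09 for Mrps24, adjusted p = 0.0302 and 0.0390). The level of Mrps12 was 22.8, 23.9 and 24.3 FPKM with HGF, against 28.5, 30.1 and 31.6 FPKM in controls. Its groups were separated as well (log2 -0.25 ± 0.07, adjusted p = 0.0172). All 3 were near the threshold: Mrps11 passed only without Control 1, Mrps24 only without Control 2 and Mrps12 only without HGF 3 or Control 1 when a library was left out, with adjusted p up to 0.113, 0.135 and 0.0664.

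Among the small subunit proteins found only in mitochondrial ribosomes, Mrps25, Mrps26, Mrps23 and Mrps33 fell. Mrps25 (ENSMUSG00000014551, chromosome 6, 92169525 to 92184033) fell to 8.55 FPKM on average with HGF, against 11.9 in controls. FPKM of Mrps25 were 7.85, 8.42 and 9.38 with HGF, against 11.9, 12.2 and 11.5 in controls. No HGF library reached the lowest control (log2 -0.38 ± 0.07, adjusted p = 0.00236). Of its exon bases 69.8% lie opposite the exons of Nr2c2, a nuclear receptor gene, whose counts cannot be told apart from those of Mrps25 if counting ignored strand; Nr2c2 itself had log2 0.07 (adjusted p = 0.666). In HGF libraries Mrps26 stood at 10.8, 11.1 and 11.4 FPKM, against 14.3, 14.6 and 15.3 FPKM in controls. Its groups were separated (log2 -0.31 ± 0.05, adjusted p = 0.00192). Mrps23 had 32.4, 33.00 and 32.2 FPKM in HGF libraries, against 41.7, 39.2 and 42.8 FPKM in controls. This was the second highest Mrps gene by level and was also lower in every HGF library (log2 -0.25 ± 0.05, adjusted p = 0.00726). The level of Mrps33 was 10.7, 11.7 and 10.1 FPKM with HGF, against 13.6, 13.5 and 14.5 FPKM in controls. Its call (log2 -0.26 ± 0.08, adjusted p = 0.0293) was kept only without HGF 2 when a library was left out, with adjusted p up to 0.102.

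Mrps27, a pentatricopeptide repeat protein of the small subunit, was higher with HGF. FPKM of Mrps27 were 24.3, 22.1 and 21.2 with HGF, against 21.6, 20.2 and 20.2 in controls. HGF 3 lay below Control 1 in FPKM, and in CPM the groups were separated (log2 0.22 ± 0.06, adjusted p = 0.0250). Without HGF 1, HGF 2, Control 2 or Control 3 Mrps27 did not pass (adjusted p up to 0.0928). Of its exon bases 24.2% lie opposite those of 6430562O15Rik, which was itself called higher (log2 0.99). That gene had 289, 355 and 396 counts with HGF, against 259, 177 and 115 in controls. Its reads could mix with those of Mrps27 if counting ignored strand. In HGF libraries Mrps21 stood at 57.3, 63.2 and 62.6 FPKM, against 70.1, 74.2 and 81.5 FPKM in controls. Mrps21, the mitochondrial S21, thus had the highest level of all Mrps genes, and its lower level with HGF missed the threshold (log2 -0.21 ± 0.07, adjusted p = 0.0535), though it passed under 11 of the 18 alternatives, leaving out Control 1 among them (adjusted p = 0.0411). Mrps36 had 13.1, 14.2 and 13.9 FPKM in HGF libraries, against 12.99, 14.7 and 15.4 FPKM in controls. The groups of Mrps36, the dehydrogenase component, overlapped (log2 0.03 ± 0.09, adjusted p = 0.830), and its sign turned with the scaling.

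**Figure D3:**
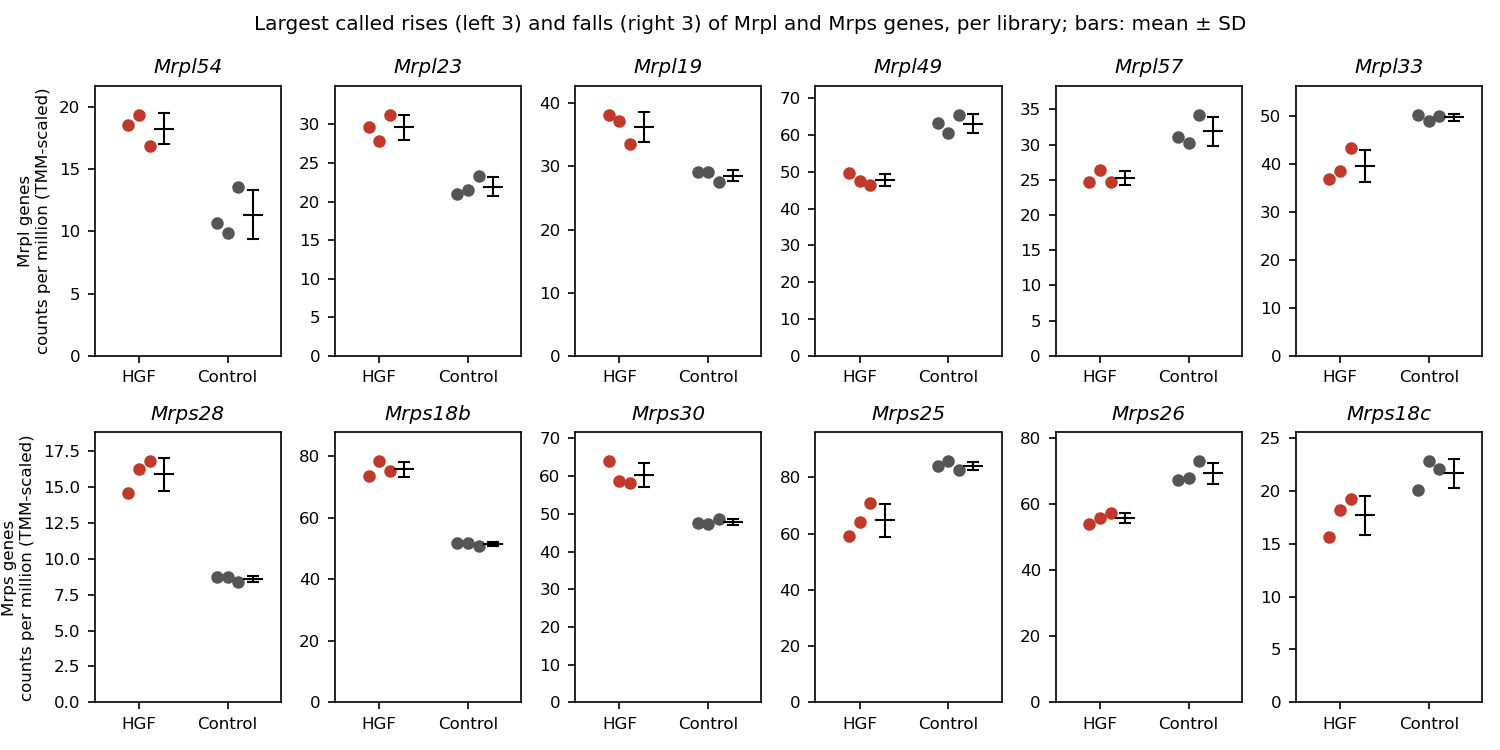
TMM-scaled CPM (y axes, from 0) in each library for the 3 Mrpl and 3 Mrps genes with the largest rises (left) and falls (right) among those that passed the test, HGF left of control in each panel; bars are the mean ± SD of 3 libraries. The 3 HGF points lie above or below all control points in every panel, and the distance is widest for Mrps28.

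In the large subunit the widest rise that passed was that of Mrpl54 (ENSMUSG00000034932, chromosome 10, 81264713 to 81266934), a protein found only in mitochondrial ribosomes, which rose 1.61-fold. The level of Mrpl54 was 19.5, 20.3 and 17.8 FPKM with HGF, against 11.97, 11.2 and 15.03 FPKM in controls. Control 3 was the highest control and still lay below every HGF library (log2 0.69 ± 0.12, adjusted p = 0.00260). Mrpl53 had a larger value that did not pass. FPKM of Mrpl53 were 26.3, 12.6 and 28.2 with HGF, against 8.35, 11.7 and 22.6 in controls. The groups overlapped widely, with HGF 2 low and Control 3 high (log2 0.75 ± 0.38, adjusted p = 0.157). Without Control 3 its log2 fold change was 1.26 (adjusted p = 0.0186). Of the exon bases of Mrpl53 88.0% are shared on the same strand with Gm42688, an annotated overlapping gene, which had 856, 1488 and 614 counts with HGF, against 1980, 1719 and 1086 in controls, so the division of reads between them is uncertain.

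Among proteins near the tunnel through which the new chain leaves the ribosome, some passed the test in either direction; they form no fixed list, and Mrpl22, for one, did not pass (log2 -0.02 ± 0.07, adjusted p = 0.876). Mrpl23 and Mrpl45 lie at its exit, and Mrpl45 holds the ribosome to the inner membrane. In HGF libraries Mrpl23 stood at 5.29, 4.93 and 5.55 FPKM, against 3.98, 4.13 and 4.38 FPKM in controls. Mrpl45 had 31.3, 33.7 and 34.9 FPKM in HGF libraries, against 28.96, 30.03 and 26.2 FPKM in controls. Both rose, with no overlap of the groups (log2 0.43 ± 0.07 for Mrpl23 and 0.33 ± 0.06 for Mrpl45, adjusted p = 0.00204 and 0.00308). Mrpl4, whose bacterial counterpart lines the tunnel, and Mrpl24, near its exit, were lower. The level of Mrpl4 was 19.7, 20.7 and 19.7 FPKM with HGF, against 24.3, 24.9 and 26.7 FPKM in controls. FPKM of Mrpl24 were 43.5, 45.6 and 44.8 with HGF, against 51.5, 51.8 and 53.2 in controls. Both were below all controls (log2 -0.24 ± 0.06 for Mrpl4 and -0.13 ± 0.04 for Mrpl24, adjusted p = 0.0101 and 0.0414). Of the exon bases of Mrpl24 26.3% lie opposite those of Rrnad1 (log2 -0.26, not past the threshold). Reads of the 2 genes could mix if counting ignored strand. The call for Mrpl24 was lost whichever library was left out (adjusted p 0.0750 to 0.116), while those for Mrpl23, Mrpl45 and Mrpl4 were kept in all 6 omissions.

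Mrpl38 and Mrpl48 belong to the central protuberance, the crest of the large subunit, where they occur only in mitochondria. They are named here as rises that passed the test. They are no full list of its proteins and do not speak for the crest as a whole. In HGF libraries Mrpl38 stood at 38.1, 36.9 and 35.6 FPKM, against 32.1, 29.2 and 33.1 FPKM in controls. It was higher in every HGF library (log2 0.32 ± 0.06, adjusted p = 0.00304). Mrpl48 had 2.48, 2.50 and 2.23 FPKM in HGF libraries, against 2.06, 1.82 and 2.31 FPKM in controls. This was the lowest FPKM of any Mrpl gene, pseudogenes aside. In CPM Mrpl54 was lower, at a mean of 18.2 with HGF and 11.3 in controls, against 22.6 and 18.2 for Mrpl48. For Mrpl48, HGF 3 lay below Control 3 in FPKM though not in CPM (log2 0.31 ± 0.10, adjusted p = 0.0401). Without HGF 1, HGF 2, Control 1 or Control 2 the call for Mrpl48 was lost (adjusted p up to 0.137). The level of Mrps30 was 8.36, 7.63 and 7.58 FPKM with HGF, against 6.64, 6.67 and 6.70 FPKM in controls. Mrps30, named for the small subunit but placed in the large one, was also higher with no overlap (log2 0.33 ± 0.06, adjusted p = 0.00174). With Mrps18a and Mrps30 counted where they sit and Mrps36 left out, 12 of 51 large subunit genes were higher and 6 lower (35.3%), and 6 of 26 small subunit genes were higher and 8 lower (53.8%), beside 38.5% of all genes and 50.7% of those in the same count range.

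Mrpl12 and Mrpl10 form the stalk that calls in translation factors, and Mrpl12 also binds the mitochondrial RNA polymerase. They were the most abundant Mrpl genes per length. FPKM of Mrpl12 were 71.8, 73.8 and 71.3 with HGF, against 68.4, 68.1 and 67.3 in controls. HGF libraries were higher throughout, by little (log2 0.19 ± 0.04, adjusted p = 0.00545). In HGF libraries Mrpl10 stood at 64.2, 59.3 and 61.9 FPKM, against 68.7, 72.3 and 68.5 FPKM in controls. The HGF libraries lay below the controls, and the difference did not pass (log2 -0.08 ± 0.04, adjusted p = 0.180). The call for Mrpl12 was kept in all 6 omissions of a library and lost with library totals, while Mrpl10 passed as lower under 6 of the 18 alternatives.

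Among the other proteins shared with bacteria, Mrpl19 of the interface between the subunits rose. Mrpl19 had 6.10, 5.89 and 5.35 FPKM in HGF libraries, against 4.95, 4.998 and 4.62 FPKM in controls. The lowest HGF library lay above the highest control (log2 0.35 ± 0.07, adjusted p = 0.00381). Mrpl15, Mrpl3 and Mrpl17 were higher by 0.17 on the log2 scale each (adjusted p = 0.0328, 0.0207 and 0.0396). Their calls were lost in some omissions: Mrpl15 did not pass without HGF 2, Control 1 or Control 2, Mrpl3 without HGF 2, Control 2 or Control 3, and Mrpl17 passed only when the library left out was HGF 3 (adjusted p up to 0.122, 0.0698 and 0.134). With library totals none of these 3 passed.

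Falls in the large subunit were led by Mrpl49 (ENSMUSG00000007338, chromosome 19, 6053622 to 6057785), which occurs only in mitochondrial ribosomes. The level of Mrpl49 was 23.04, 21.8 and 21.5 FPKM with HGF, against 31.4, 30.2 and 31.9 FPKM in controls. The HGF libraries were lower by a wide margin, as they were in CPM. FPKM of Mrpl57 were 7.29, 7.71 and 7.24 with HGF, against 9.79, 9.60 and 10.6 in controls. In Mrpl57, likewise specific to mitochondria, the groups were also apart. In HGF libraries Mrpl33 stood at 4.37, 4.54 and 5.13 FPKM, against 6.36, 6.25 and 6.25 FPKM in controls. Mrpl34 had 39.4, 39.4 and 38.7 FPKM in HGF libraries, against 51.6, 46.5 and 54.6 FPKM in controls. These small proteins with bacterial counterparts were both below every control (log2 -0.33 ± 0.07 for Mrpl33 and -0.28 ± 0.08 for Mrpl34, adjusted p = 0.0053 and 0.0173). The call for Mrpl34 was lost without HGF 2, HGF 3, Control 1 or Control 3 (adjusted p up to 0.0651).

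Mrpl58 and Mrpl44, known for an enzyme's activity or fold, did not pass. Mrpl58, also called ICT1, is a hydrolase that frees peptides from stalled mitoribosomes. The level of Mrpl58 was 10.1, 10.5 and 9.40 FPKM with HGF, against 9.83, 9.31 and 10.01 FPKM in controls. Its groups overlapped (log2 0.14 ± 0.07, adjusted p = 0.139). Mrpl44 carries a fold of the ribonuclease III family. FPKM of Mrpl44 were 16.1, 18.6 and 16.4 with HGF, against 18.7, 18.5 and 18.6 in controls. HGF 1 and HGF 3 were low and HGF 2 was not, and the groups overlapped in CPM (log2 -0.03 ± 0.07, adjusted p = 0.775), with a positive sign when HGF 1 or HGF 3 was left out. The 5 pseudogenes had 10 to 137 counts per library and none passed.

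Members lay on 17 chromosomes, with 11 on chromosome 11 and 8 on chromosome 17. Coordinates of 74 of the 83 equal those of GENCODE M21 (GRCm38), though the submitters' processing notes name mm8, and they are printed as deposited. Mean levels per length were 2.40 to 72.3 FPKM with HGF and 2.06 to 69.8 FPKM in controls for Mrpl genes, pseudogenes aside, and 3.70 to 61.0 and 3.55 to 75.2 for Mrps genes. These levels depend on the length used: for 99.2% of 11705 well counted genes FPKM followed the union of all annotated exons within 5%. So Mrpl13, with 7936 exon bases but a coding transcript of 1223, had 12.03 FPKM with HGF against 12.4 in controls, while Mrpl12, with 1532 exon bases, had 72.3 against 67.9, although in CPM they were close (107, 113 and 110 with HGF for Mrpl13, against 126, 131 and 126 with HGF for Mrpl12). Exon bases were shared with another gene by 33 members, to at least 20% in 9 of them and to at least 50% in Mrpl53, Mrps25 and Mrps34.

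Genes that serve the mitoribosome were tested in the same fit, where 19.1% of all genes were higher and 19.3% lower; many of the counts below moved with the setting, so their range over all settings is given. Of 5 subunits with other names, Gadd45gip1 was higher (log2 0.25 ± 0.07, adjusted p = 0.0156) and Ptcd3 lower (-0.19 ± 0.06, adjusted p = 0.0298). Of 27 factors that assemble the mitoribosome or modify its RNA, 1 was higher and 7 lower (0 to 2 and 4 to 12 over the settings), with a median of -0.13, below 0 under every setting tried. Mterf3, a negative regulator of mitochondrial transcription that also acts in ribosome assembly, had 12.04, 10.6 and 11.2 CPM with HGF, against 16.4, 17.5 and 18.2 in controls (log2 -0.62 ± 0.08, adjusted p = 5.89e-04). Mpv17l2, an inner membrane protein tied to assembly, and Nsun4, a methyltransferase that joins the subunits together with Mterf4, fell by 0.55 ± 0.08 and 0.40 ± 0.08 on the log2 scale. Of 17 translation factors 2 were higher and 3 lower (1 to 3 and 1 to 6). Among them Tufm, the elongation factor that brings aminoacyl-tRNA, rose by 0.32 ± 0.05, Lrpprc, which keeps mitochondrial messengers stable, by 0.25 ± 0.05, and Guf1, a back-translocating GTPase, fell by 0.70 ± 0.12 (adjusted p = 0.00108, 0.00336 and 0.00179).

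Of 22 aminoacyl-tRNA synthetases of mitochondria and related enzymes, 4 were higher and 5 lower (2 to 4 and 4 to 8 over the settings, median -0.01). Kars and Gars, which also charge tRNA in the cytosol, rose by 0.40 ± 0.04 and 0.27 ± 0.03, while Cars2, which works only in mitochondria, fell by 0.65 ± 0.07 (adjusted p = 9.82e-05, 3.62e-04 and 1.88e-04). Of 20 genes for transcription and upkeep of mitochondrial DNA 4 were higher and 1 lower (1 to 5 and 0 to 4), with Hsd17b10 and Prorp, parts of the enzyme that trims mitochondrial tRNA, rising by 0.29 ± 0.05 and 0.40 ± 0.11, and Pnpt1, an RNA-degrading enzyme, lower by a log2 of -0.18 ± 0.06. Of 13 regulators of mitochondrial biogenesis 4 (30.8%) were higher and none lower (2 to 5 and 0 to 2 over the settings). The 4 were Pprc1, a coactivator related to PGC-1, by 0.44 ± 0.06, Max by 0.22 ± 0.04, Gabpb1 by 0.24 ± 0.06 and Myc by 0.32 ± 0.09 (adjusted p = 4.19e-04, 0.00428, 0.00861 and 0.0195). Nrf1, Gabpa and Yy1, whose motifs were searched above, had 0.10 ± 0.08, -0.15 ± 0.11 and 0.12 ± 0.06 and did not pass (adjusted p = 0.359, 0.328 and 0.181).

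The cytosolic ribosome gave a different picture. Of its 78 protein genes 57 were higher and none lower, with a median of 0.25. Over the settings 22 to 66 were higher and 0 to 3 lower, the lowest count of rises and the highest of falls on quantile-normalised FPKM, and the median was 0.06 to 0.28. Rpl3 had 1917, 1809 and 1789 CPM with HGF, against 1329.6, 1277 and 1315 CPM in controls. The import machinery of mitochondria had 11 of 31 genes higher and 2 lower (6 to 12 and 1 to 7 over the settings), led by the chaperones Hspa9 (log2 0.65 ± 0.05) and Hspd1 (0.49 ± 0.06) and the pore protein Tomm40 (0.39 ± 0.05), with a median of 0.10 that came to -0.0025 with library totals. Of 75 nuclear genes of the respiratory chain 13 were higher and 12 lower (median -0.06), a balance that held only under some scalings: over the settings 1 to 15 were higher and 6 to 30 lower, with 1 higher and 29 lower on library totals. Among them were Ndufs8 higher by 0.34 ± 0.05 and Ndufb10 lower by a log2 of -0.35 ± 0.05. Of the 13 proteins made by the mitoribosome itself, 10 messengers were lower and 1 higher in these poly(A) libraries, with a median of -0.37. Under a correction for GC content 2 were lower and 3 higher, and the median was 0.07. mt-Cytb had 2169.6, 2339 and 2648 CPM with HGF, against 3453, 3802 and 3819 CPM in controls, and mt-Co1 was the one that rose (log2 0.14 ± 0.04, adjusted p = 0.0168).

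**Figure D4:**
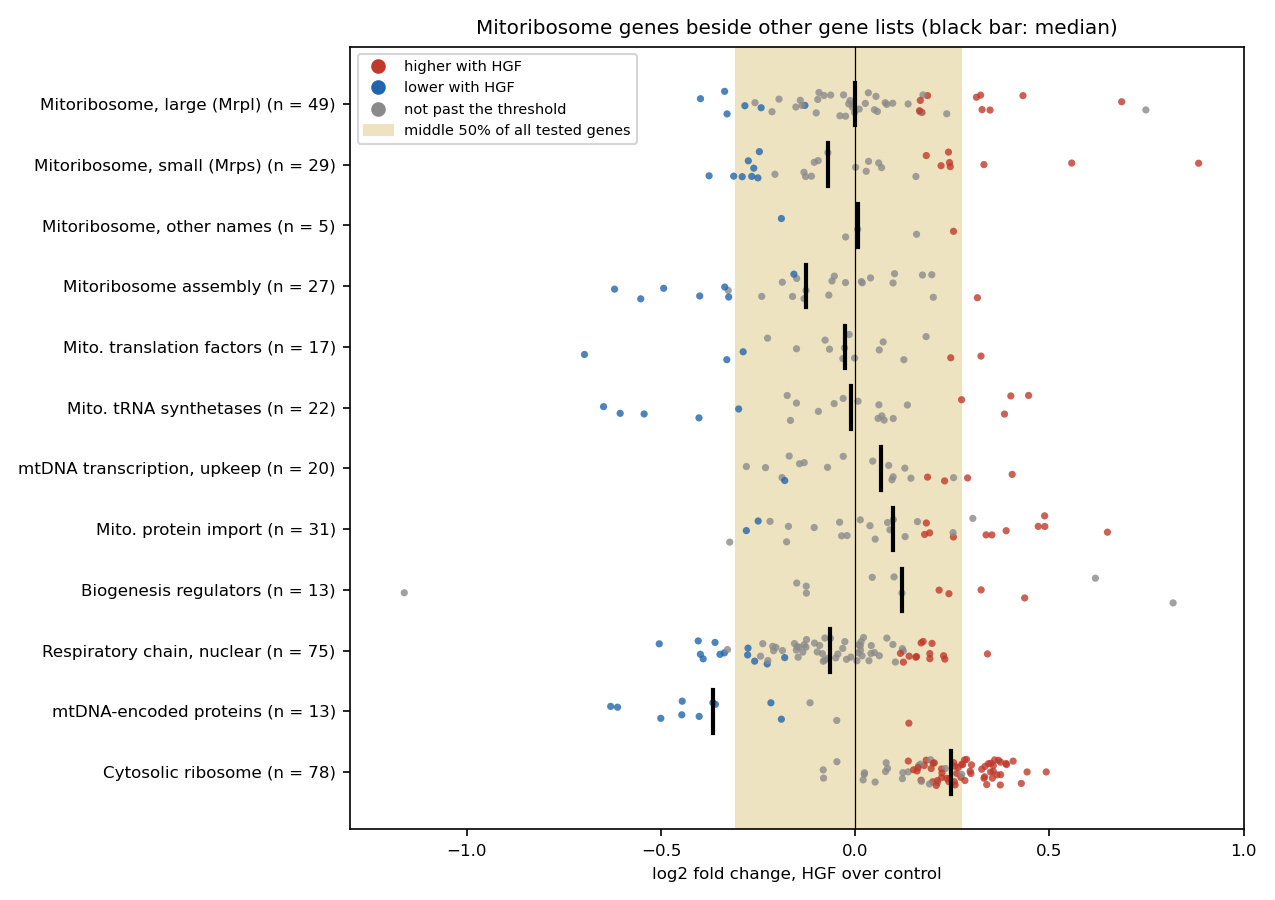
Log2 fold change, HGF over control (x axis), of each tested gene in the mitoribosome and in 10 other gene lists; black bars are medians, colours show genes that passed adjusted p 0.05, and the shaded band holds the middle 50% of all tested genes (-0.31 to 0.27). Mitoribosome points scatter on both sides of 0, while cytosolic ribosome points lie to the right with a median of 0.25.

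Over all members, 18 of the 32 calls were kept whichever library was left out and 14 were lost in at least 1 omission. With library totals 8 rises lost their call (Mrpl12, Mrpl15, Mrpl17, Mrpl3, Mrpl48, Mrps18a, Mrps27 and Mrps6, adjusted p 0.101 to 0.351), and with limma on log2(FPKM + 1) these 8 and Mrps10 did. Without a low-count filter Mrpl17, Mrpl24, Mrpl48, Mrps11, Mrps18c, Mrps24 and Mrps33 lost it (adjusted p up to 0.0805), and under the GC correction Mrpl57 and Mrps33 did. Without HGF 2 or Control 2, 6 Mrpl genes were higher in place of 10, and 5 Mrps genes in place of 8. Over all genes, rises also became fewer, 2553 of 18038 without HGF 2 and 2673 of 17899 without Control 2, in place of 3316 of 17322. The 8 Mrps genes called lower became 3 without HGF 1 or Control 3, 4 without HGF 2 or Control 2 and 5 without HGF 3. Falls over all genes became fewer too, from 3349 of 17322 to 2829 of 17979 without HGF 1 and 2868 of 17961 without Control 3. They numbered 2340 of 18038 without HGF 2, 2492 of 17899 without Control 2 and 3054 of 17963 without HGF 3. Control 3 was the library with skeletal muscle genes, and without it 11 Mrpl genes were higher and 4 lower, and 6 Mrps genes were higher and 3 lower. Over all genes 3053 were then higher and 2868 lower, in place of 3316 and 3349.

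**Figure D5:**
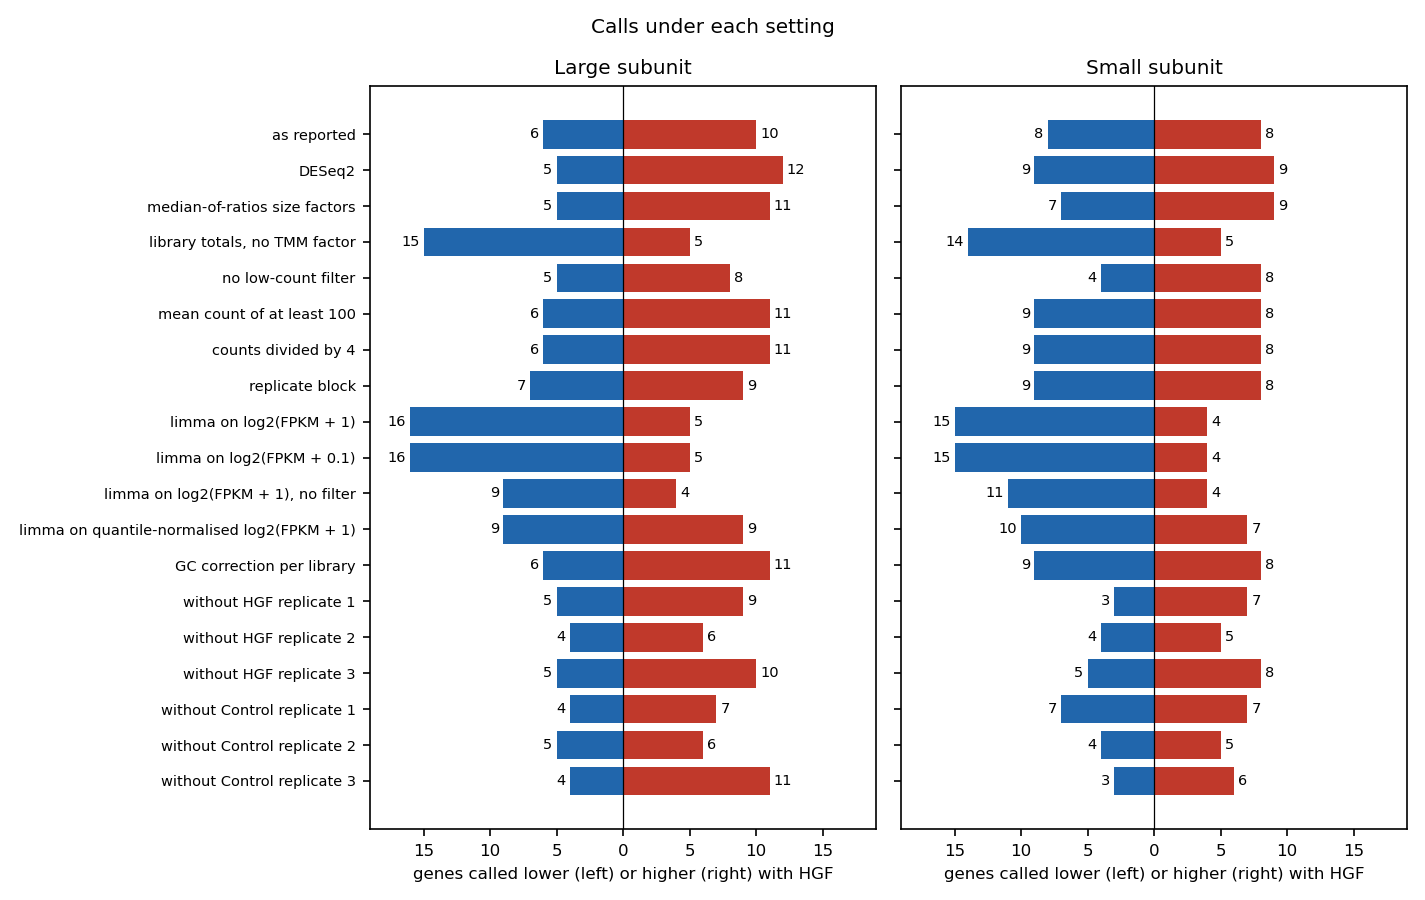
Number of Mrpl (left) and Mrps (right) genes called lower (bars to the left) or higher (bars to the right) with HGF at adjusted p 0.05 under the reported setting and each alternative. Bars to the left are longest with library totals and with limma on log2(FPKM + 1), where 15 or 16 Mrpl genes were lower.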

How the data were processed

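Per the labels' protocols, poly(A) RNA of 3 HGF and 3 control libraries was sequenced paired-end on a NovaSeq instrument. The authors' table holds, per the file headers, a count and an FPKM column for each library. The counts are whole numbers as deposited by the authors; a count of 4 was more frequent (a mean of 1108.5 genes per library) than 3 (527) or 5 (306), so a read pair may weigh several counts. The deposited FPKM are the authors' values per exon length and library size. The submitters' processing notes list build mm8 and the tools StringTie 1.3.0, HISAT2 2.0 and Bowtie 0.12.2; what each did, the annotation and any use of strand: not given in the sources used here. The protocol text also speaks of adipose material.

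Low counts were removed by filterByExpr and libraries scaled by TMM, before the two-sided quasi-likelihood test of edgeR 4.0.16 (R 4.3.3), Benjamini-Hochberg adjusted over 17322 genes. The script was tested on simulated data. SE is the size of the log2 fold change over the root of F. Totals were 57073866 to 66302502 counts, and members other than pseudogenes had at least 484 counts in every library. With counts divided by 4, replicates differed beyond sampling noise (chi-square over its degrees of freedom 3.04 to 7.75), so none was taken for a duplicate. FPKM lack TMM, so the members' ratios of HGF over control in FPKM are 0.935 to 0.940 of those in TMM-scaled CPM, pseudogenes aside.

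Values in every library are given, by rule, for the 6 largest rises and falls that passed per subunit name, the 2 highest by FPKM and members with a special place or role; of other lists up to 3 genes of smallest p. Further genes (neighbours, Mrpl53, Mrps12, Mrps27, Mrpl13, Myc, Nrf1, Gabpa, Yy1, mt-Co1) were chosen after their values were seen. Members, lists and tests were chosen with earlier results of these data known. Alternatives were DESeq2 1.42.0, median-of-ratios factors, library totals, no filter, a mean count of at least 100, counts divided by 4, a replicate block, limma 3.58.1 on log2(FPKM + 1) keeping genes that reach FPKM 1 in 3 libraries, with pseudocount 0.1, without filter or quantile-normalised, each library left out, and a GC correction added after seeing the data. Limma folds are on the log2(FPKM + pseudocount) scale and understate low genes.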

Additional observations from a re-analysis of the deposited data

How the results depend on the processing

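Mrpl genes higher with HGF numbered 10, and 5 with library totals and with limma on log2(FPKM + 1) or log2(FPKM + 0.1), 4 with limma without a filter, and 6 to 11 when a library was left out; Mrpl genes lower numbered 6, and 15 with library totals, 16 with limma on log2(FPKM + 1) or log2(FPKM + 0.1), 9 with limma without a filter or on quantile-normalised values, and 4 to 5 when a library was left out. Mrps genes higher numbered 8, and 5 with library totals, 4 with the 3 limma fits that were not quantile-normalised, and 5 to 8 when a library was left out; Mrps genes lower numbered 8, and 14 with library totals, 15 with limma on log2(FPKM + 1) or log2(FPKM + 0.1), 11 with limma without a filter, 4 without a low-count filter, and 3 to 7 when a library was left out. Calls over all genes fell too when a library was left out, from 6665 of 17322 tested. They ran from 4893 of 18038 without HGF 2 to 6228 of 17963 without HGF 3. Library totals move the median of all genes by -0.10. The cause of the other shifts was not tested. The log2 fold change of Mrps36 turned to -0.073 with library totals, -0.060 with limma on log2(FPKM + 1) with or without a filter and -0.064 on log2(FPKM + 0.1), and ran from -0.040 (without Control 1) to 0.090 when a library was left out; that of Mrpl44 ran from -0.095 to 0.012 (positive without HGF 1 or HGF 3). Deviations of same-numbered libraries from their group means correlated at 0.0592, -0.0300 and 0.0377, so no strong pairing by replicate number was seen. With 3 libraries a group this cannot show that the libraries were unpaired. With the replicate block 9 Mrpl genes were higher and 7 lower, and 8 Mrps genes higher and 9 lower. The pseudogenes had few counts (10 to 137 per library), and whether depth limited the calls of other members was not tested.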
